A study of Mus musculus with 9 samples.

Results

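The Hedgehog pathway was followed through adipocyte differentiation by 9 of its genes, out of 19094 genes listed in at least 1 sample. They were chosen by name as the reception and output core of the pathway: the receptor Ptch1, the ligand-binding inhibitor Hhip, the co-receptors Gas1, Boc and Cdon, the transducer Smo and the transcription factors Gli1, Gli2 and Gli3. The rule used names alone, but the names were chosen with earlier results of these data known. All 9 passed the filter on low counts. The 9 RNA-seq samples came from 3T3-L1, a line of mouse embryo fibroblasts that turn into fat-storing adipocytes after hormonal induction, with 3 replicates at each of 3 days. Day 0 cells had grown nearly to confluence and had not yet received induction medium. By day 4 the cells had been exposed to induction medium, with dexamethasone, IBMX and insulin, for 2 days and to maintenance medium, with insulin alone, for another 2, and by day 8 for 4 more days to the latter. All samples carry the same cell line and the same cell type, adipocytes, in their labels, also at day 0, and no sample was an uninduced culture of the same age as day 4 or day 8, so time in culture and induction cannot be told apart. Samples were prepared as RNA mixtures, and nothing says that replicates came from separate cultures, so the p-values measure only the spread between these samples, which may be technical. The sum of expected counts per sample was between 18216114 and 20452144.

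Hedgehog ligands are secreted proteins that bind Patched receptors. Without ligand, PTCH1 keeps the membrane protein SMO inactive, and the GLI proteins are held by SUFU or, GLI3 above all, cut into repressors after phosphorylation by protein kinase A. Ligand binding, helped by the co-receptors GAS1, BOC and CDON, frees SMO to enter the primary cilium and lets GLI activators form, and Gli1, Ptch1 and Hhip are themselves classical targets of the pathway. In preadipocytes, Hedgehog signalling is known to hold back adipogenesis.

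Between day 0 and day 4, Gli1 RNA fell by nearly the same factor as Hhip RNA, 3.82-fold and 3.70-fold, and Gli3 fell 1.87-fold. Ptch1, Gli2 and Smo fell by less, Gas1 rose 1.73-fold and Boc 1.22-fold. From day 4 to day 8 the fallen genes stayed low, Gas1 came back down, and Boc and Cdon rose.

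Promoters are shown for 3 genes that were lower at day 4 and at day 8 than at day 0, Ptch1 and Hhip as classical targets and Gli3 as the transcription factor with the second largest fall after Gli1. Each run holds the 250 bases before the start of the gene, 5′ to 3′ on the gene's own strand, from RefSeq on build GRCm38.p6. Windows were found for 7 of the 9 genes, and Gli1 and Boc had none, so their promoters were not searched. The capitals mark GC boxes, the letters GGGCGG or, on the other strand, CCGCCC, a motif searched after the data were seen. The Ptch1 window is chr13:63565736-63565985 (minus strand), the Hhip window chr8:80058009-80058258 (minus strand) and the Gli3 window chr13:15463473-15463722 (plus strand).
Ptch1: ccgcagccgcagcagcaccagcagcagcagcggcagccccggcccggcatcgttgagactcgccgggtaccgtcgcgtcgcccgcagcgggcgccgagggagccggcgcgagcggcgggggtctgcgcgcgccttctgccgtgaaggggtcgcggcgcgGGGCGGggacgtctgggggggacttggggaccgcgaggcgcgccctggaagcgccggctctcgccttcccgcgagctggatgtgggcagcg
Hhip: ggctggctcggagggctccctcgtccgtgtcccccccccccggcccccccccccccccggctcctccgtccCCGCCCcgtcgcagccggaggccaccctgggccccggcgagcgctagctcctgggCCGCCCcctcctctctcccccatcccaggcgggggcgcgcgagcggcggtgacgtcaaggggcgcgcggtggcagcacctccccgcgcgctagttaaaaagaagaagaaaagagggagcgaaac
Gli3: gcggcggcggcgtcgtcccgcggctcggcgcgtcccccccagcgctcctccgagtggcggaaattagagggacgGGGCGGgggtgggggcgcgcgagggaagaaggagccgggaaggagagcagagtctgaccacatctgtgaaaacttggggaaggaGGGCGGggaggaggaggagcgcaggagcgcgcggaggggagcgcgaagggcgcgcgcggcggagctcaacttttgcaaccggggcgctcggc
The GLI consensus GACCACCCA was found on neither strand of any of the 7 windows, and neither was its core CCACCCA, which lies inside it. Among 32851 promoter windows of the same length, 0.225% held the consensus and 8.11% the core. GC boxes occurred in 32.7% of all windows and in 5 of these 7, with 1 match in Ptch1, 2 in Hhip, 2 in Gli3, 1 in Gas1 and 1 in Gli2, and none in Cdon or Smo. The 3 printed windows consisted of G and C to 78.4% (Ptch1), 76% (Hhip) and 72.8% (Gli3), against a median of 52.4% over all windows. They were the highest of the 7, with 68.4% in Smo, 67.2% in Gli2, 58.8% in Gas1 and 42.8% in Cdon. A match is a description of letters, and a window without a match says nothing about binding elsewhere.

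The comparisons were 3 in number: day 4 against day 0 (early phase), day 8 against day 4 (late phase) and day 8 against day 0 (whole process). All 9 samples entered 1 model in edgeR's quasi-likelihood test, fitted over 13154 genes, and each adjusted p below is the Benjamini-Hochberg value over all of these genes. A gene was called when the adjusted p was under 0.05 and the fold change above 2, while higher and lower refer to the adjusted p alone. In the early phase 0 of the 9 genes were called up, where 9.77% of all tested genes were, and 2 were called down (Gli1 and Hhip), where 7.98% of all tested genes were. By adjusted p alone 2 were higher, beside 35.5% of all genes, and 6 lower, beside 33.7%. In the late phase 0 were called up (4.24% of all genes) and 0 down (2.81%), while by adjusted p 2 were higher (22.5%) and 1 lower (22.7%). The same 3 genes, Gas1, Boc and Cdon, had an unadjusted p under 0.05 in the late phase, and none of the 21 other settings tried called any of the 9 there. Over the whole process 0 were called up (10.3%) and 2 down (7.7%), again Gli1 and Hhip, and by adjusted p 3 were higher (34.8%) and 6 lower (36.2%). The median log2 fold change of the 9 genes was -0.24 early, 0.03 late and -0.24 over the whole process, where all tested genes had medians of 0.02, -0.01 and -0.02.

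**Figure D1:**
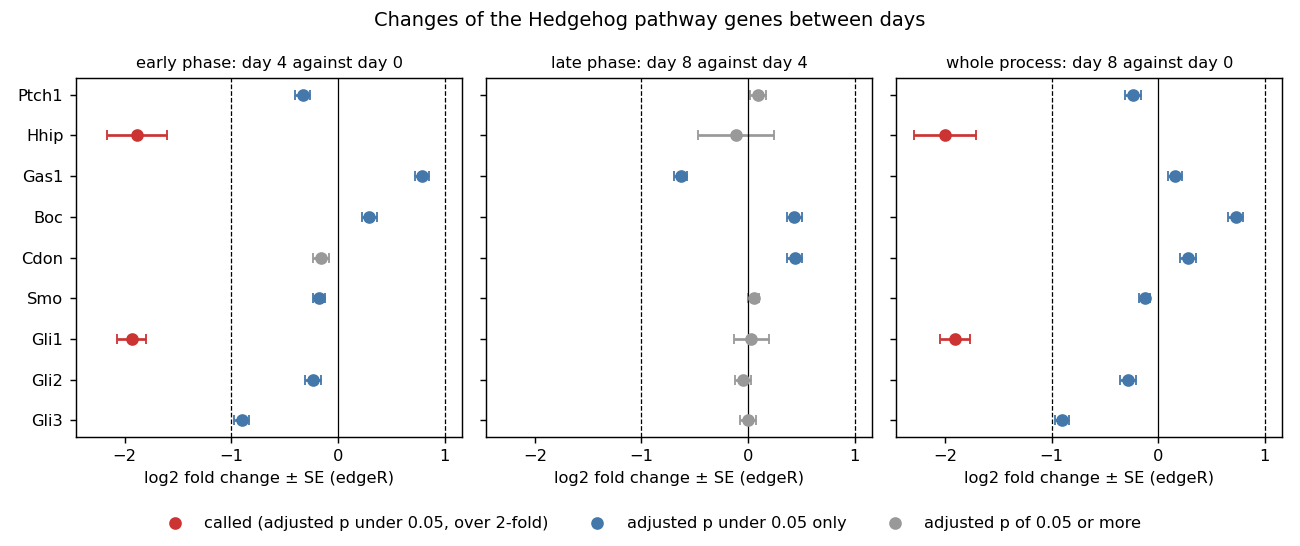
Log2 fold change with its standard error (x axis) of the 9 genes (y axis, by role) in the early phase, the late phase and the whole process, coloured by whether a gene was called (red), passed the adjusted p alone (blue) or did not pass (grey); dashed lines mark a 2-fold change. Gli1 and Hhip lie near -2 in both comparisons with day 0, Gli3 close to -1 but inside the line, and in the late phase Gas1, Boc and Cdon are the genes that pass the adjusted p.

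Levels are given below in FPKM, a value scaled to gene length and to the depth of the sample, so that different genes can be set side by side. Gas1 was the most abundant of the 9 genes on every day, and its mean level was 4.89 times that of Smo, the next gene, at day 0, 9.57 times at day 4 and 5.95 times at day 8. At day 0 the order below Smo was Cdon, Boc, Gli2, Gli3, Ptch1, Gli1 and Hhip, and only the neighbours Cdon and Boc had overlapping replicates. At day 4 Boc stood above Cdon and Ptch1 above Gli3, and within each of these pairs the replicates overlapped. At day 8 the order was the same as at day 4 and no neighbours overlapped. Levels therefore spanned from over 300 FPKM in 8 of the 9 samples for the co-receptor Gas1 to under 1 FPKM in all samples for the inhibitor Hhip.

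**Figure D2:**
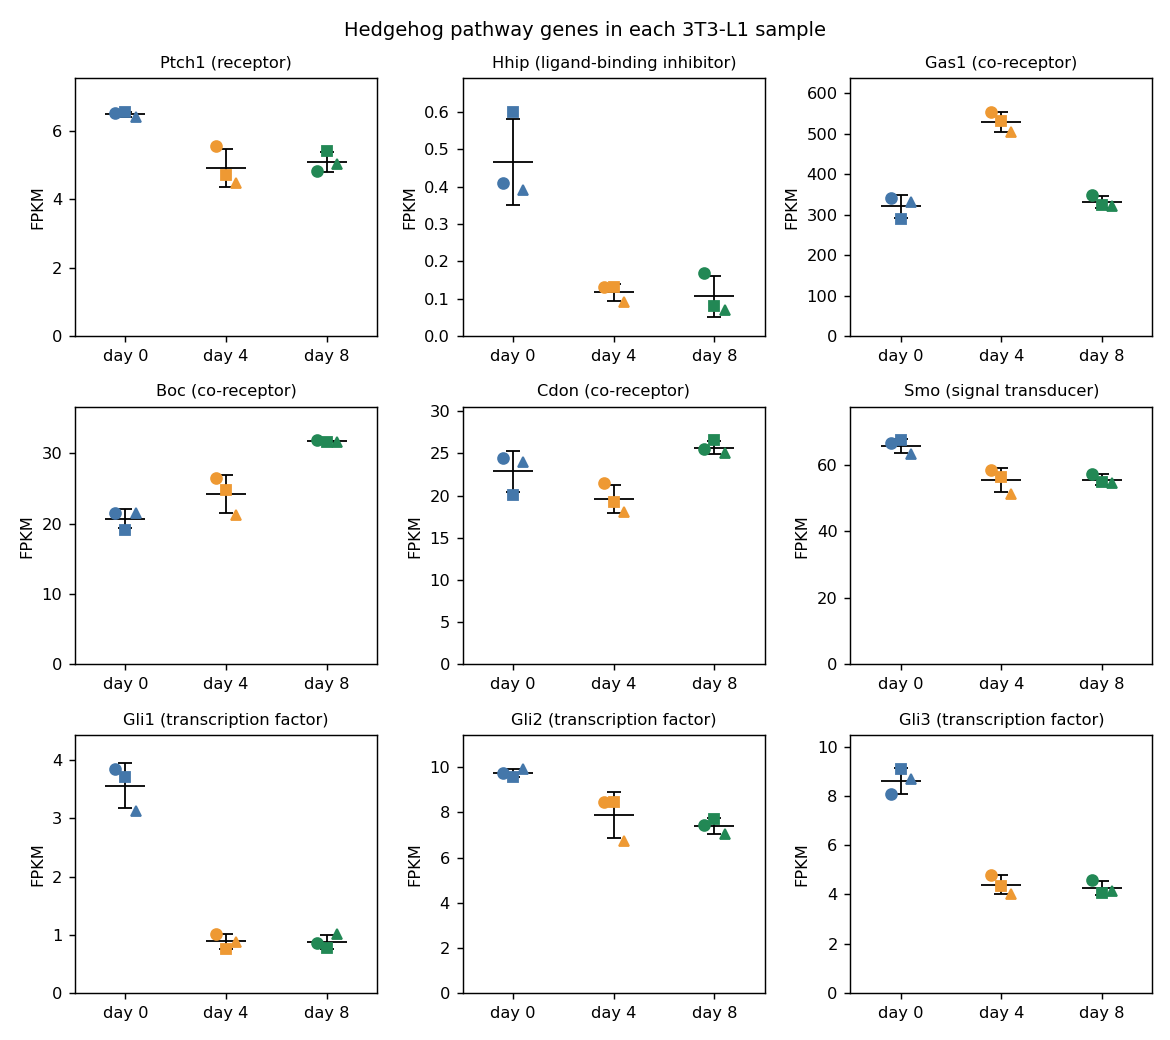
FPKM (y axis, from 0) of the 9 genes in each sample by day (x axis); circles, squares and triangles are replicates 1, 2 and 3, the long line is the mean and the bar the SD (n = 3). Gli1, Hhip and Gli3 step down between day 0 and day 4 and stay there, Gas1 peaks at day 4, and Boc is highest at day 8.

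Ptch1 (gene ID 19206) encodes the Hedgehog receptor, which restrains SMO and is induced by the pathway it restrains. Its levels were 6.51, 6.55 and 6.41 FPKM in the 3 replicates of day 0, 5.55, 4.72 and 4.48 FPKM at day 4, and 4.82, 5.42 and 5.03 FPKM at day 8. All day 0 samples were above every later sample, and day 4 and day 8 overlapped. Ptch1 fell by 0.33 on the log2 scale in the early phase (SE 0.07, edgeR adjusted p = 0.000774) and was lower by a similar amount over the whole process (-0.24, SE 0.07, edgeR adjusted p = 0.00853). The late-phase difference was 0.09 (SE 0.07, edgeR adjusted p = 0.322), and it passed the threshold at 0.19 without replicate 1 of day 4 (edgeR adjusted p = 0.0341). Compared with Gli1 and Hhip, the other classical targets among the 9, Ptch1 moved little, at 1.26-fold against 3.82-fold and 3.70-fold.

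Hhip (gene ID 15245) encodes a cell-surface protein that binds Hedgehog ligands and keeps them from the receptor. It was the least abundant of the 9 genes, at 0.41, 0.6 and 0.39 FPKM at day 0, 0.13, 0.13 and 0.09 FPKM at day 4, and 0.17, 0.08 and 0.07 FPKM at day 8. These levels rested on 77, 100 and 73 expected counts at day 0, 25, 25 and 16 at day 4, and 32, 15 and 12 at day 8, all above the floor of 3 counts. Every day 0 sample was above all 6 later samples, in which the days overlapped. Hhip fell by 1.89 on the log2 scale in the early phase (SE 0.28, edgeR adjusted p = 2.0e-05) and 4.01-fold over the whole process (SE 0.29 on the log2 scale, edgeR adjusted p = 1.2e-05). On the scale of log2(FPKM + 1), which shrinks changes of so low a gene, the values were -0.39 and -0.40 and the 2-fold mark was not reached. For the late phase, the difference was -0.12 (SE 0.36, edgeR adjusted p = 0.816), with a 95% interval from -0.81 to 0.58, and a change inside this interval was not detectable with these samples. Without replicate 1 of day 8 the late-phase difference was -0.64.

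Gas1 (gene ID 14451) encodes a membrane-anchored co-receptor that presents ligand to PTCH1 and was first known as a gene switched on by growth arrest. It stood at 341.3, 288.78 and 332.24 FPKM at day 0, 553.54, 531.35 and 503.22 FPKM at day 4, and 347.61, 323.74 and 320.71 FPKM at day 8. The 3 day 4 samples were above all other samples, and day 0 and day 8 overlapped. Gas1 rose by 0.79 in the early phase (SE 0.06, edgeR adjusted p = 1.3e-08) and fell by 0.63 in the late phase (SE 0.06, edgeR adjusted p = 5.9e-07), the only one of the 9 genes that passed the test in opposite directions in the 2 phases. The whole-process difference was small, 0.16 (SE 0.06, edgeR adjusted p = 0.0379), and it missed the threshold under 7 of the alternatives, among them library size alone (0.04) and leaving out replicate 2 of day 0 (0.08), replicate 1 of day 8 (0.13) or replicate 2 of day 8 (0.17). In the GENCODE annotation 19.9% of the exon bases of Gas1 lie under exons of Gm48488 on the other strand, and the strand setting of the counting is not given in the sources used here, so antisense reads cannot be told apart.

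Boc (gene ID 117606) encodes an immunoglobulin-family co-receptor that binds ligand together with PTCH1. Its levels were 21.45, 19.1 and 21.49 FPKM at day 0, 26.54, 24.84 and 21.24 FPKM at day 4, and 31.81, 31.66 and 31.56 FPKM at day 8. Day 8 was above every other sample, whereas 1 sample of day 4 lay within the range of day 0. Boc was the only one of the 9 genes that was higher in both phases, by 0.29 in the early phase (SE 0.07, edgeR adjusted p = 0.00172) and by 0.43 in the late phase (SE 0.07, edgeR adjusted p = 0.000106). Together these made 0.73 over the whole process (SE 0.07, edgeR adjusted p = 1.3e-07), a 1.65-fold rise.

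Cdon (gene ID 57810), the close relative of Boc with the same co-receptor function, took another course. It was at 24.47, 20.12 and 24 FPKM at day 0, 21.44, 19.2 and 18.1 FPKM at day 4, and 25.47, 26.52 and 25.02 FPKM at day 8. Day 8 again lay above all other samples, and day 0 and day 4 overlapped. The early difference was -0.16 (SE 0.07, edgeR adjusted p = 0.0666), which passed the threshold under 8 alternatives, with -0.25 without replicate 2 of day 0 and -0.23 without replicate 1 of day 4. Cdon rose by 0.44 in the late phase (SE 0.07, edgeR adjusted p = 0.00015) and by 0.28 over the whole process (SE 0.07, edgeR adjusted p = 0.00291), but the latter value was 0.17 and missed the threshold with limma on log2(FPKM + 1) (adjusted p = 0.0717).

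Added together, the 3 co-receptors reached 364.3 ± 31.8 FPKM (SD, n = 3) at day 0, 573.2 ± 29.5 FPKM (SD, n = 3) at day 4 and 388.0 ± 14.8 FPKM (SD, n = 3) at day 8. The day 4 samples did not overlap with those of the other days, and the exact two-sided permutation test gave p = 0.1 for both phases, the smallest value that 3 against 3 samples allow, and p = 0.5 for the whole process. Gas1 made up between 88.0% and 88.1% of the sum in the day 0 samples, between 92.0% and 92.7% on day 4 and between 84.8% and 85.9% on day 8, so the sum mainly followed Gas1. Boc stood below Cdon in each day 0 sample and above it in each sample of day 4 and day 8.

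Smo (gene ID 319757) encodes the G protein-coupled receptor-like transducer that PTCH1 restrains. It was the second most abundant of the 9 genes, at 66.44, 67.32 and 63.16 FPKM at day 0, 58.34, 56.41 and 51.28 FPKM at day 4, and 57.36, 54.89 and 54.47 FPKM at day 8. Day 0 was above all later samples, by a small margin, and the later days overlapped. Smo fell by 0.18 in the early phase (SE 0.05, edgeR adjusted p = 0.00622). Over the whole process it was lower by 1.09-fold (log2 fold change -0.13, SE 0.05, edgeR adjusted p = 0.0378), a difference that missed the threshold under 9 alternatives. These were DESeq2's size factors (-0.11), no filter (-0.12), the DESeq2 Wald test (-0.11) and leaving out replicate 1 or 2 of day 0, replicate 2 of day 4 or any replicate of day 8 (-0.10 to -0.14). The late-phase difference was 0.05 (SE 0.05, edgeR adjusted p = 0.454). Of the 50-base stretches of Smo transcripts 1.56% also occur in another gene, Gm4066, and of those of Ptch1 0.221% occur elsewhere, whereas the other 7 genes shared none.

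Gli1 (gene ID 14632) encodes an activator that is switched on by Hedgehog signalling and is widely read as its output. Its levels were 3.85, 3.71 and 3.12 FPKM at day 0, 1.02, 0.76 and 0.88 FPKM at day 4, and 0.85, 0.78 and 1.01 FPKM at day 8. The expected counts behind them were 290, 249 and 234.93 at day 0, 76, 57 and 64 at day 4, and 63, 58 and 74 at day 8. Even the lowest day 0 sample stood far above the highest later one, and day 4 and day 8 covered almost the same range. Gli1 fell by 1.94 on the log2 scale in the early phase (SE 0.14, edgeR adjusted p = 3.2e-09), the largest fall among the 9 genes in that phase, and by 1.90 over the whole process (SE 0.14, edgeR adjusted p = 3.9e-09). The late-phase difference was 0.03 (SE 0.17, edgeR adjusted p = 0.895), with a 95% interval from -0.29 to 0.36. Exons of other genes on the opposite strand, Arhgap9 and Gm47200, cover 6.55% of the exon bases of Gli1.

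Gli2 (gene ID 14633) encodes the GLI protein that is mainly responsible for activation at the start of a response. It was at 9.73, 9.56 and 9.93 FPKM at day 0, 8.46, 8.47 and 6.72 FPKM at day 4, and 7.44, 7.72 and 7.03 FPKM at day 8. Day 0 was above all later samples, while replicate 3 of day 4 lay below the whole of day 8. Gli2 fell by 0.24 in the early phase (SE 0.08, edgeR adjusted p = 0.0105) and by 0.29 over the whole process (SE 0.08, edgeR adjusted p = 0.00315). Without replicate 3 of day 4, the lowest of its day, the early value was -0.13 and still passed the threshold. In the late phase the difference was -0.05 (SE 0.08, edgeR adjusted p = 0.646), but it was -0.15 and passed the threshold without that sample (edgeR adjusted p = 0.0338).

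Gli3 (gene ID 14634) encodes the GLI protein that, when the pathway is off, acts mainly as a repressor. Its levels were 8.07, 9.1 and 8.68 FPKM at day 0, 4.81, 4.36 and 4.02 FPKM at day 4, and 4.59, 4.07 and 4.13 FPKM at day 8. Day 0 stood far above the later days, whose ranges overlapped. Gli3 fell by 0.90 in the early phase (SE 0.07, edgeR adjusted p = 7.3e-09) and by 0.90 over the whole process (SE 0.07, edgeR adjusted p = 7.4e-09), or 1.87-fold in each case, just short of the 2-fold mark. With library size alone as the scaling, the whole-process value was -1.01 and passed that mark. The late-phase difference was 0.00050 (SE 0.07, edgeR adjusted p = 0.997), with a 95% interval from -0.14 to 0.14.

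As the 3 Gli genes fell unequally, their proportions shifted. Summed, they gave 21.9 ± 0.395 FPKM (SD, n = 3, as for all values of this paragraph) at day 0, then 13.2 ± 1.38 FPKM and, on day 8, 12.5 ± 0.356 FPKM. Of this sum Gli1 made up 16.2% ± 1.74 at day 0, 6.77% ± 1.04 at day 4 and, on day 8, 7.03% ± 1.11. Gli2, on the other hand, went from 44.5% ± 1.54 to 59.8% ± 2.30 and 59.0% ± 2.11 of the sum, without any rise in its own level, and Gli3 from 39.3% ± 1.79 to 33.4% ± 1.27 and 34.0% ± 1.63. The ratio of Gli3 to Gli2 FPKM was 0.885 ± 0.0620 before induction, 0.561 ± 0.0423 on day 4 and 0.577 ± 0.0457 on day 8. For the Gli1 share, the exact two-sided permutation test gave p = 0.1 for both comparisons with day 0, the smallest value possible with 3 against 3 samples, and p = 0.8 in the late phase. For the Gli3 to Gli2 ratio the exact permutation p-values were 0.1 (early phase), 0.6 (late phase) and 0.1 (whole process). These shares concern RNA and leave out how much of each protein was processed into activator or repressor.

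**Figure D3:**
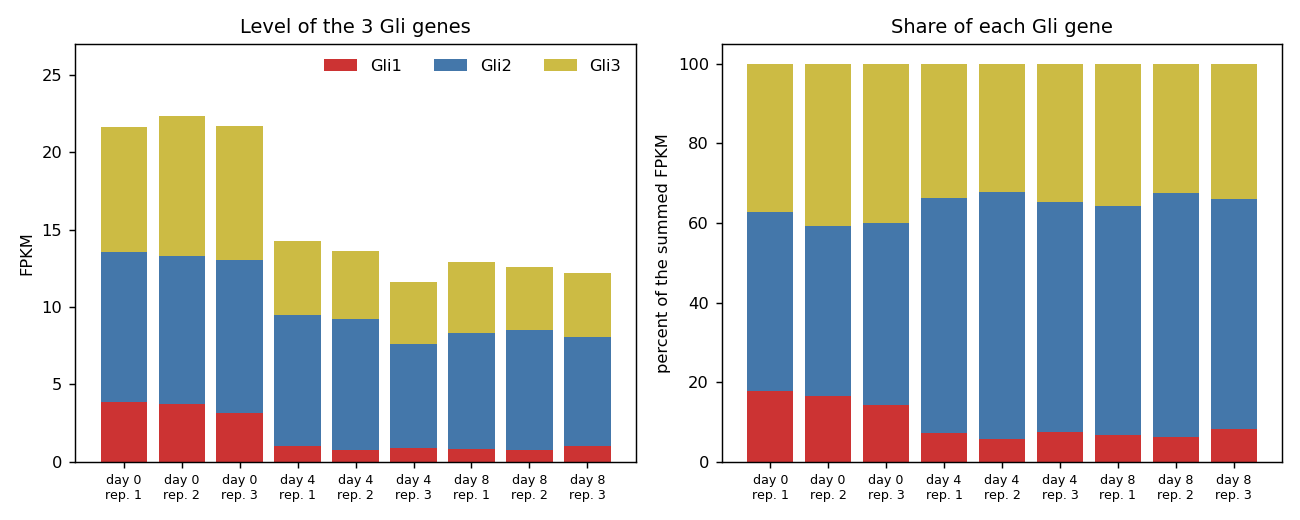
Stacked FPKM of Gli1, Gli2 and Gli3 in each of the 9 samples (left, y axis in FPKM) and each gene's percent of that sum (right). The summed level is lower in all day 4 and day 8 samples than at day 0, and the Gli1 share drops from between 14.4% and 17.8% to between 5.59% and 8.30%.

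The other genes of the pathway were read in 5 lists. The ligands themselves were at or near 0: Shh was not listed in any sample, Ihh had at most 6 counts and Dhh at most 1 count in a sample, so none was tested. Of 9 genes for ligands and their release, 4 were tested, of which 1 was called up and 1 down at day 4 and again at day 8, each against day 0, and none in the late phase, beside the shares of all tested genes given above for the 9 genes. The gene called up was Disp2, a relative of the ligand-releasing transporter Disp1, with mean levels of 0.74 FPKM at day 0, 3.61 at day 4 and 6.96 at day 8 (edgeR log2 fold change 2.36, SE 0.13, early; 0.99, SE 0.10, late). In the late phase Disp2 was just past 2-fold with DESeq2's size factors or test and without replicate 2 or 3 of day 4 or replicate 1 of day 8. The gene called down was Scube3, a secreted helper of ligand release, which had up to 32 counts in a day 0 sample and at most 3 in any later one. Scube3 passed the low-count filter only through day 0, the day where it was high, so its call was partly set by that filter. With at least 10 counts required in every sample it was not tested. Disp1, the most abundant of the list at day 0 and day 4, with Disp2 above it at day 8, fell by 0.83 in the early phase (SE 0.07, edgeR adjusted p = 1.4e-08) without reaching 2-fold.

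Among 12 other receptors and binding proteins at the cell surface, 6 were tested. Of these, 1 was called up and 3 down in the early phase, 1 up and 1 down in the late phase, and 1 up and 3 down over the whole process, beside the same shares of all tested genes as given above for the 9 genes. Ptchd1, a Patched-domain protein, fell by 1.80 in the early phase (SE 0.11), and Gpc6, a glypican, by 1.23 (SE 0.09). Lrp2, an endocytic receptor, was also called down, from at most 33 counts in a day 0 sample to at most 5 later. Lrp2 too passed the low-count filter only through day 0, so its call was partly set by that filter. With at least 10 counts required in every sample it was not tested. Hhipl1, a relative of Hhip, fell by 1.24 in the late phase (SE 0.18), where Hhip itself differed by -0.12, and had a log2 fold change of -1.66 over the whole process (SE 0.17). The most abundant gene of this list, Gpc4, was lower by 0.70 at day 4 (SE 0.05) and back near its starting level at day 8.

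The relay from SMO to the GLI proteins was represented by 30 names, of which 29 were listed and tested. Only 1 gene was called up in the early phase, none in the late phase and 2 up over the whole process, and none was called down, where 9.77%, 4.24% and 10.3% of all tested genes were called up and 7.98%, 2.81% and 7.7% down. By adjusted p 10 were higher (35.5% of all tested genes) and 11 lower (33.7%) in the early phase, and the median log2 fold change was 0.05. Prkar2b, a regulatory subunit of protein kinase A, rose by 1.20 in the early phase (SE 0.07) and by 1.48 over the whole process (SE 0.07), from 22.3 to 57.8 FPKM. Arrb1, a beta-arrestin, rose by 1.27 over the whole process (SE 0.06). Below the 2-fold mark, and named after their values were seen, Prkaca, a catalytic subunit of protein kinase A, rose by 0.88 in the early phase (SE 0.06), the other catalytic subunit on the list, Prkacb, fell by 0.18 (SE 0.04, edgeR adjusted p = 0.0019), and Gpr161, a ciliary receptor that raises cAMP, fell by 0.89 (SE 0.07). The most abundant gene was Gnas, the stimulatory G protein subunit, at 1150 ± 37.1 FPKM at day 0, 1031 ± 17.9 at day 4 and 1109 ± 44.2 at day 8.

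All 34 genes for transport in the primary cilium, the antenna-like organelle in which SMO and the GLI proteins meet, were tested. By adjusted p 8 were higher and 18 lower in the early phase (35.5% and 33.7% of all tested genes), 3 higher and 14 lower in the late phase (22.5% and 22.7%), and 2 higher and 21 lower over the whole process (34.8% and 36.2%). The median log2 fold changes were -0.17, -0.16 and -0.30, beside medians near 0 over all genes, and the summed level went from 421.9 ± 4.81 FPKM (SD, n = 3) at day 0 to 386.0 ± 7.36 FPKM by day 4, and it was 342.5 ± 7.62 FPKM by day 8. Called down over the whole process were 3 of the 34, a share near the 7.7% of all tested genes, namely Wdr19 (-1.24, SE 0.09), Wdr35 (-1.09, SE 0.07) and Ift74 (-1.07, SE 0.08), all of the intraflagellar transport machinery. The motor gene Kif17 was called up in both comparisons with day 0 and down in the late phase, but it had at most 4 counts in a day 0 sample, 20 in a day 4 sample and 12 in a day 8 sample. Kif17 passed the low-count filter mainly through day 4, the day where it was high. Its late call was lost under 7 alternatives, among them leaving out replicate 2 or 3 of day 4 or replicate 1 or 3 of day 8. Its whole-process call was lost under 10, among them leaving out replicate 1 or 2 of day 0, any replicate of day 4 or replicate 2 of day 8. Tulp3, which brings receptors into the cilium, was the most abundant and rose by 0.48 in the early phase (SE 0.05) and fell by 0.50 in the late phase (SE 0.05).

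Among 16 names of other known targets, 12 were tested, and 1 was called up and 4 down in the early phase (9.77% and 7.98% of all tested genes), 2 up and none down in the late phase (4.24% and 2.81%), and 1 up and 1 down over the whole process (10.3% and 7.7%). By adjusted p 8 were lower in the early phase (33.7%) and 10 higher in the late phase (22.5%), with median log2 fold changes of -0.77 and 0.50. Ccnd1, cyclin D1, fell by 1.14 in the early phase (SE 0.06), and its log2 fold change over the whole process was -1.62 (SE 0.06), from 138.8 to 41.8 FPKM. The forkhead genes Foxl1, Foxf1 and Foxc2 fell by 2.10 (SE 0.19), 1.45 (SE 0.29) and 1.20 (SE 0.09) in the early phase. They were higher again at day 8 than at day 4, Foxl1 by 1.14 (SE 0.21, edgeR adjusted p = 0.00034), Foxf1 by 0.97 (SE 0.31, edgeR adjusted p = 0.016) and Foxc2 by 0.71 (SE 0.09, edgeR adjusted p = 1.5e-05). In the same phase Gli1 differed by 0.03 and Hhip by -0.12, and the difference between genes was not tested. The late count of 2 depended on single samples, with 4 without replicate 2 of day 4 and 1 without replicate 1 of day 8, where Foxl1 was no longer called. Ccnd2, the most abundant gene of the list, fell by 0.34 in the early phase (SE 0.05) and rose by 0.25 in the late phase (SE 0.05).

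**Figure D4:**
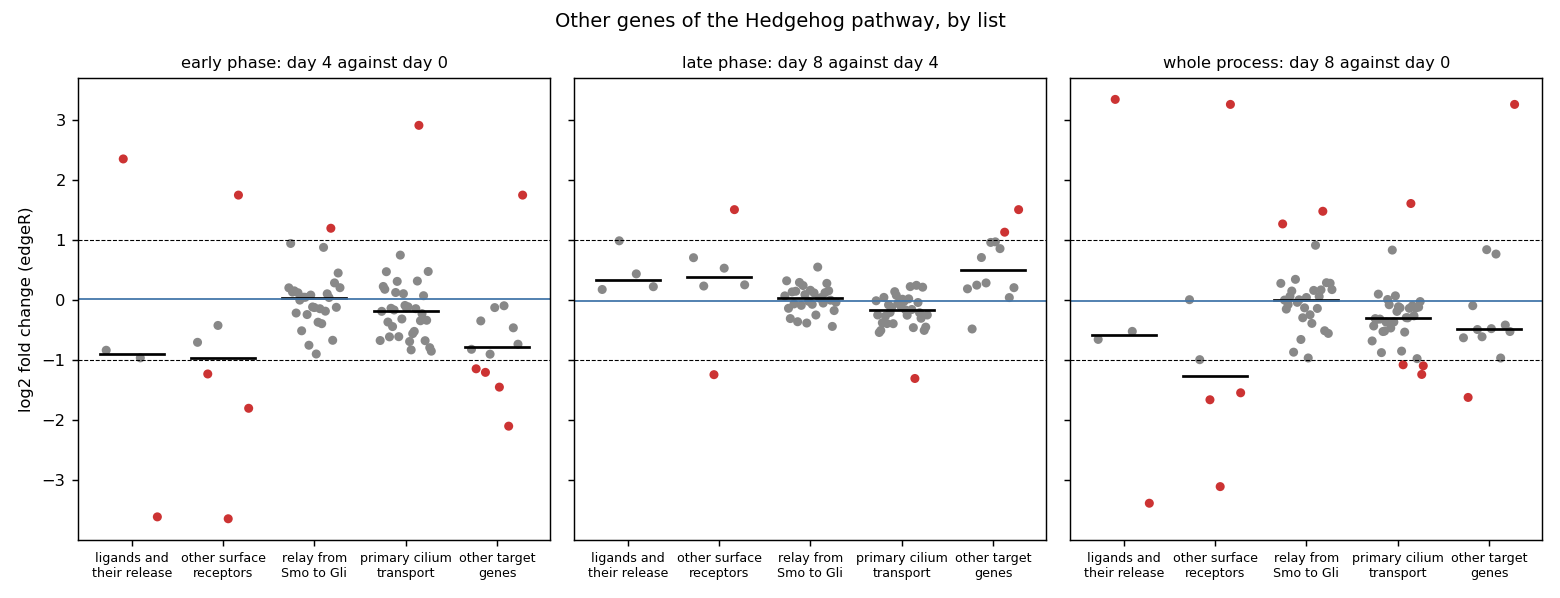
Log2 fold change (y axis) of each tested gene in the 5 lists (x axis) in the early phase, the late phase and the whole process; red points were called, black bars are list medians, the blue line is the median over all tested genes and dashed lines mark a 2-fold change. Relay genes centre on 0, cilium genes lie mostly below it, and the other targets lie below 0 in the early phase and above it in the late phase.

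Marker genes were read beside these changes, since in bulk samples fewer cells of a type and less RNA per cell cannot be told apart. All 10 adipocyte markers were called up at day 4 (9.77% of all tested genes) and at day 8 (10.3%) against day 0. Their summed level was 149.07, 144.14 and 144.25 FPKM in the day 0 samples, 5938.33, 7039.6 and 8485.24 at day 4, and 8811.7, 9625.26 and 9551.68 at day 8, with Lpl, lipoprotein lipase, the most abundant gene at day 0 and Fabp4, a fatty acid carrier, at day 4 and day 8. Lep, the adipocyte hormone leptin, was at 0 in all day 0 samples, and Adipoq, Plin1, Cidec, Cfd and Slc2a4 were under 1 FPKM there. The other 4 were present at day 0, with means of 117.1 FPKM for Lpl, 11.5 for Pparg, 9.52 for Fabp4 and 5.89 for Cebpa. At day 4 their means were 1266, 93.2, 4052 and 87.2 FPKM in the same order. None of the 10 markers was thus at its later level in the day 0 samples, which are also labelled adipocytes. The time of the largest rise of these markers was that of the fall of Gli1, Hhip and Gli3, and their part in that fall was not tested.

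Of 10 names of preadipocyte and fibroblast markers, 9 were tested, with 3 called down in the early phase, 2 up in the late phase and 2 down over the whole process (7.98%, 4.24% and 7.7% of all tested genes in the same order). They summed to 4787.11, 4608.06 and 4873.37 FPKM at day 0, 3451.07, 3390.1 and 3107.26 at day 4, and 5657.61, 5543.9 and 5638.48 at day 8, with the collagen gene Col1a2 the most abundant. Col1a1 and Col1a2 made up most of this sum, and single members took other courses. Ly6a, a surface marker of preadipocytes, had means of 166.7, 42.7 and 38.8 FPKM at days 0, 4 and 8, low at both later days as Gli1, Hhip and Gli3 were. Dlk1, a preadipocyte factor, had means of 827.6, 180.8 and 415.3 FPKM, and Cd34 of 0.510, 0.307 and 0.207 FPKM. By adjusted p 1 of the 9 tested markers was higher and 8 were lower in the early phase (35.5% and 33.7% of all tested genes). Over the whole process 4 were higher and 4 lower (34.8% and 36.2%). The marker higher in the early phase was Pdgfra, a growth factor receptor, which rose by 0.84 (edgeR adjusted p = 4.3e-10). Its relative Pdgfrb fell by 0.61 in the early phase (edgeR adjusted p = 8.8e-07) and was higher by 0.27 over the whole process (edgeR adjusted p = 0.0021). All 10 proliferation markers were lower in the early phase by adjusted p, and 3 of them (Mki67, Top2a and Bub1) were called, where 33.7% and 7.98% of all tested genes were. Their summed level was 123.31, 170.83 and 122.98 FPKM at day 0, 74.28, 75.92 and 81.17 at day 4, and 87.66, 88.62 and 77.41 at day 8, with the cyclin gene Ccna2 the most abundant at day 0, Birc5, a survival and mitosis factor, at day 4 and day 8, and none at 0. The part of either list in the changes of the 9 genes was not tested.

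Other cell types were looked for because the extraction text of the labels names dorsal root ganglia, which goes against the cell line. Of 10 sensory neuron markers 3 were tested. Scn10a and Calca had at most 6 counts in any sample, whereas P2rx3 reached 2300.04 counts and Avil 163 in a day 0 sample. The list summed to 29.85, 23.07 and 25.55 FPKM at day 0, 7.38, 6.94 and 6.7 at day 4, and 19.74, 20.45 and 20.72 at day 8, and its most abundant gene on each day was P2rx3, an ATP-gated channel, with means of 23.1, 5.05 and 18.2 FPKM. P2rx3 and Avil, an actin-binding protein, were called down in the early phase and Snap25, a vesicle fusion protein, up. Macrophage markers summed to between 5 and 8.98 FPKM in every sample with Cd14 the most abundant, and Ptprc, Adgre1 and Itgam had at most 4 counts. Endothelial markers summed to between 0.22 and 0.57 FPKM, with Cdh5 the most abundant at day 0 and Pecam1 at day 4 and day 8, and Tie1 not listed. Myoblast markers summed to between 3.78 and 8.82 FPKM, nearly all of it Des, the intermediate filament desmin, while Myod1 was not listed and Myog, Myf5 and Pax7 had at most 2 counts.

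Gli1 served as the reference for genes with a like course, by Pearson's r of log2 CPM over the 9 samples, which fall into 3 groups by day and share their depth correction, so r is a description only. Of the other 8 genes, Gli3 was most like it (r = 0.97), followed by Hhip (0.90), Ptch1 (0.84), Smo (0.80) and Gli2 (0.75). The co-receptors did not follow Gli1, with -0.13 for Cdon, -0.64 for Gas1 and -0.74 for Boc. Among the 11458 genes whose average log2 CPM was 1 or more, the 4 highest values belonged to Cep162, a centrosomal protein (0.99), Aida, an axin interactor (0.99), Ccl9, a chemokine (0.99), and Avil (0.99). All 4 had a lower mean at day 4 than at day 0 and almost the same mean at day 8 as at day 4, in FPKM 4.86, 2.05 and 1.95 for Cep162, 41.4, 24.4 and 23.8 for Aida, 10.8, 3.49 and 3.46 for Ccl9, and 2.32, 0.513 and 0.483 for Avil. Their early log2 fold changes were -1.18, -0.69, -1.56 and -2.11 in that order, beside -1.94 for Gli1.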

How the data were processed

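Per the labels and the study's methods, RNA of 9 samples (3 per day) was sequenced by a provider. The authors filtered the reads, mapped them with HISAT/Bowtie2 and quantified genes with RSEM; the submitters' processing notes also name CASAVA 1.4. Build, annotation, strand setting and the other tool versions are not given in the sources used here. The deposited expected counts are RSEM's estimates without normalization, and 29.8% are not whole. The deposited FPKM are the authors' length- and depth-scaled values. The reference table held 19040 of the 19094 gene IDs, through which 26 symbols turned into dates were repaired.

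Counts were rounded and tested in R 4.3.3 with edgeR 4.0.16 (filterByExpr by day, TMM factors, glmQLFit and glmQLFTest, 1 coefficient per day, no covariate), with Benjamini-Hochberg adjustment over the 13154 genes tested; 5940 were not tested. The standard error is the log2 fold change divided by the root of F. Log2 CPM used a prior count of 2. Depth was 18216114 to 20452144 expected counts per sample (median 20182731), and the floor of 3 counts equals 0.147 to 0.165 CPM; intervals and floors cover counting error or replicate spread only. Replicates differed by more than sampling noise (chi-square per gene 2.40 to 10.7), so none was merged. Sample numbers were not used to pair the days in the main model. Shared 50-base stretches and overlapping exons were taken from GENCODE M21 transcripts, motifs and promoters from RefSeq. Steps were tested on simulated data.

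The 9 genes and all lists were chosen with earlier results of these data known. Named are the 9 genes, every called gene of the pathway lists, the ligands, each list's most abundant gene, markers at 0 and the 5 genes most like Gli1 whose average log2 CPM was 1 or more; 3 genes covered by this rule are not reported here. Alternatives were DESeq2's factors, upper-quartile factors and library size alone, a filter of at least 10 counts in every sample and none at all, DESeq2 1.42.0, edgeR's exact test, limma 3.58.1 on log2(FPKM + 1) and log2(FPKM + 0.1), separate models, a replicate block, an adjusted p under 0.001 and leaving out each sample; those on the lists were chosen after seeing the data. Exact permutation tests used scipy 1.17.1.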

Additional observations from a re-analysis of the deposited data

How the results depend on the processing

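Gli1 and Hhip were called in both comparisons with day 0 under each alternative but one: with limma on log2(FPKM + 1), 1 gene remained called in each (Hhip at -0.39 and -0.40 was lost), and the genes called among all tested numbered 1273 (early), 360 (late) and 1281 (whole process) instead of 2335, 928 and 2369. With at least 10 counts in every sample the late count was 483. Library size alone moved the median of all genes over the whole process to -0.13 and brought Gli3 past 2-fold (-1.01). Of 540 alternative values for the 27 fold changes of the 9 genes, 518 kept direction and call, 2 lost and 1 gained the 2-fold call, and 19 changed sign. All 19 were late-phase differences that did not pass the test. For Gli1 these were -0.0143 with library size alone and -0.0047 and -0.0082 with limma (pseudocounts of 1 and 0.1). They were also -0.0397 without replicate 2 of day 4 and -0.0617 without replicate 3 of day 8. For Gli3 they were -0.0064 with upper-quartile factors, -0.0445 with library size alone, -0.0349 and -0.0417 with limma and -0.0021 in separate models. They were also -0.0630 without replicate 3 of day 4 and -0.0464 without replicate 1 of day 8. With samples left out, the values of both signs ran from -0.0617 to 0.15 for Gli1 and from -0.0630 to 0.0698 for Gli3. They ran from -0.64 to 0.15 for Hhip, -0.0045 to 0.10 for Smo and -0.15 to 0.0390 for Gli2. For 29 fold changes of list genes, 537 of 569 values stayed the same, 32 lost the call, 13 of them with limma on log2(FPKM + 1), and 0 changed sign. The replicate block called 2 (early), 0 (late) and 2 (whole process) of the 9 genes and 2340, 923 and 2370 genes among all tested, and brought Cdon past the threshold in the early phase (-0.16, edgeR adjusted p = 0.0473). Same-numbered samples of different days deviated together only weakly (correlations -0.0348 to 0.0750, mean 0.0307, over 9 pairs). Differently numbered samples gave -0.100 to 0.0628 (mean -0.0154, over 18 pairs). In both other days, 4 of 9 samples correlated best with their own number. Whether the numbers pair the days cannot be told from these values. The causes were not tested. With 3 samples a day, the standard errors among the 9 genes were largest for Hhip, at 12 to 100 counts a sample.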
